A study of Mus musculus with 10 samples.

Results

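The 38 mouse genes described here make, break down and remodel sphingolipids, including the gangliosides of neurons and the galactolipids of myelin. They were taken as a named list from sphingolipid metabolism by a rule that uses no measured value, although the list was drawn up with earlier results of these data known, and make up 38 of the 55536 genes in the count tables. The 10 RNA-seq libraries came from 5 mice aged 1 year, each of which gave its cerebellum and its cerebral cortex. The Snx14-KO mice (KO, 2 mice) carried a frameshift deletion of 1 base pair in both copies of Snx14, introduced with Cas9 on the C57BL/6J background. The controls (3 mice) are described in the series design as littermates, with controls 1 and 2 given as heterozygotes (Het) in the labels and control 3 as wild type (WT). The allele was selected among the edited pups, backcrossed to C57BL/6J and is carried by every cell, so it marks no cell type. Whole tissue was used, so each library is a mixture of neurons, glia and vessels. Expression levels are CPM (counts scaled to a common library size, with TMM factors over all 10 libraries). Fold changes are log2 values with a standard error (SE). The SE was derived from the test, as the absolute log2 value divided by the square root of its F statistic. Replicates were separate mice.

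Sphingolipids are built on a long-chain base that serine palmitoyltransferase makes from serine and an acyl-CoA at the endoplasmic reticulum, the compartment in which the SNX14 protein resides. Ceramide synthases and desaturases turn that base into ceramide, from which sphingomyelin, ceramide 1-phosphate, sphingosine 1-phosphate, glucosylceramide or galactosylceramide are made. In the brain, glucosylceramide feeds the sialic acid-bearing gangliosides that are abundant in neuronal membranes, whereas galactosylceramide and its sulfated form, sulfatide, are made mainly by oligodendrocytes for myelin.

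Library totals lay between 16088310 and 22975355 gene counts, and all 38 genes passed the filter on low counts in each comparison. Snx14 itself was measured at 42.8, 39.9 and 73.3 CPM in the cerebellum of controls 1, 2 and 3 and at 15.5 and 17.4 CPM in KO mice. In cortex it was at 34.4, 35.0 and 50.9 CPM in controls and at 14.8 and 16.1 CPM in KO mice. KO libraries were lowest in both tissues and the WT control was highest. Some libraries stood apart in the summed RNA of cell type markers. Summed CPM of 9 Purkinje cell (PC) markers were 9167 to 10738 in control and 4736 to 4877 in KO cerebellum, with 8 of the 9 called lower and none at 0. Summed oligodendrocyte markers reached 9066 CPM in the cortex of control 2 against 4905 to 5357 CPM in the other cortex libraries, and summed striatal markers reached 3846 CPM there against 430 to 1642 CPM. Choroid plexus markers summed to 60.1 CPM in the cerebellum of KO 1 and to 1195 to 3381 CPM in the other cerebellum libraries. Granule cell markers (4282 to 5102 CPM in cerebellum, 93.4 to 116 CPM in cortex) and cortical excitatory neuron markers (423 to 493 CPM in cerebellum, 1293 to 1833 CPM in cortex) matched the labelled tissues.

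The comparison of Snx14-KO with control mice asked whether transcripts for sphingolipid enzymes change when SNX14 is absent. In cerebellum 1 of the 38 genes was called. Cerk, which encodes the ceramide kinase that makes ceramide 1-phosphate, fell by 0.51 on the log2 scale. A call required a Benjamini-Hochberg adjusted p under 0.05 in the quasi-likelihood test of edgeR and an absolute log2 fold change over 0.5, and 1.55% of the 19447 genes tested in cerebellum met it (1.04% as lower). At an unadjusted p under 0.05 stood 5 of the 38 genes, all with lower values in KO mice (Kdsr, Ormdl1, Cers5, Cerk and Ugcg), against 13.4% of all genes tested. For 11 of the 38 genes the KO libraries lay outside the range of the controls, 8 below it and 3 above, against 30.0% of all genes tested (14.6% below and 15.5% above). The median log2 difference was -0.03 over the 38 genes and 0.00 over all genes.

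In cortex none of the 38 genes was called by edgeR, and 0 of the 19202 genes tested met the same thresholds. Snx14 itself had a log2 fold change of -1.36 (SE 0.19) in cortex with an adjusted p of 0.754 (edgeR). The test thus also missed the mutated gene, and an absence of calls in cortex says little about single genes. Sgms1 and Smpd3 were the 2 of the 38 genes at an unadjusted p under 0.05, against 5.93% of all genes. DESeq2, run without the filter on low counts, called 0 of the 38 genes and 49 (0.141%) of the 34776 genes with any count. When low counts were not filtered, edgeR called 2 of the 38, Ugt8a and Smpd3, and 1.09% of the 34776 genes. KO libraries lay outside the control range for 10 of the 38, 6 below it and 4 above, against 24.7% of all genes (14.2% below and 10.5% above). The difference between the KO effects in cerebellum and cortex, tested as an interaction in 1 fit of all 10 libraries, passed an adjusted p of 0.05 for none of the 38 genes and for 0.102% of all genes, and 5 of the 38 stood at an unadjusted p under 0.05 against 8.28% of all. With no filter 3 of the 38 passed (Smpd3, Fa2h and Cerk) and 1.56% of the 38501 genes with any count. The 2 calls in cortex and the 3 in the interaction without the filter were absent with it in the same fits. The interaction fit did not pair the tissues of a mouse. With the filter kept and the mouse as a block, Cerk passed the interaction, as described below. The log2 fold changes of the 38 genes, with their SE, are plotted for both tissues.

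**Figure D1:**
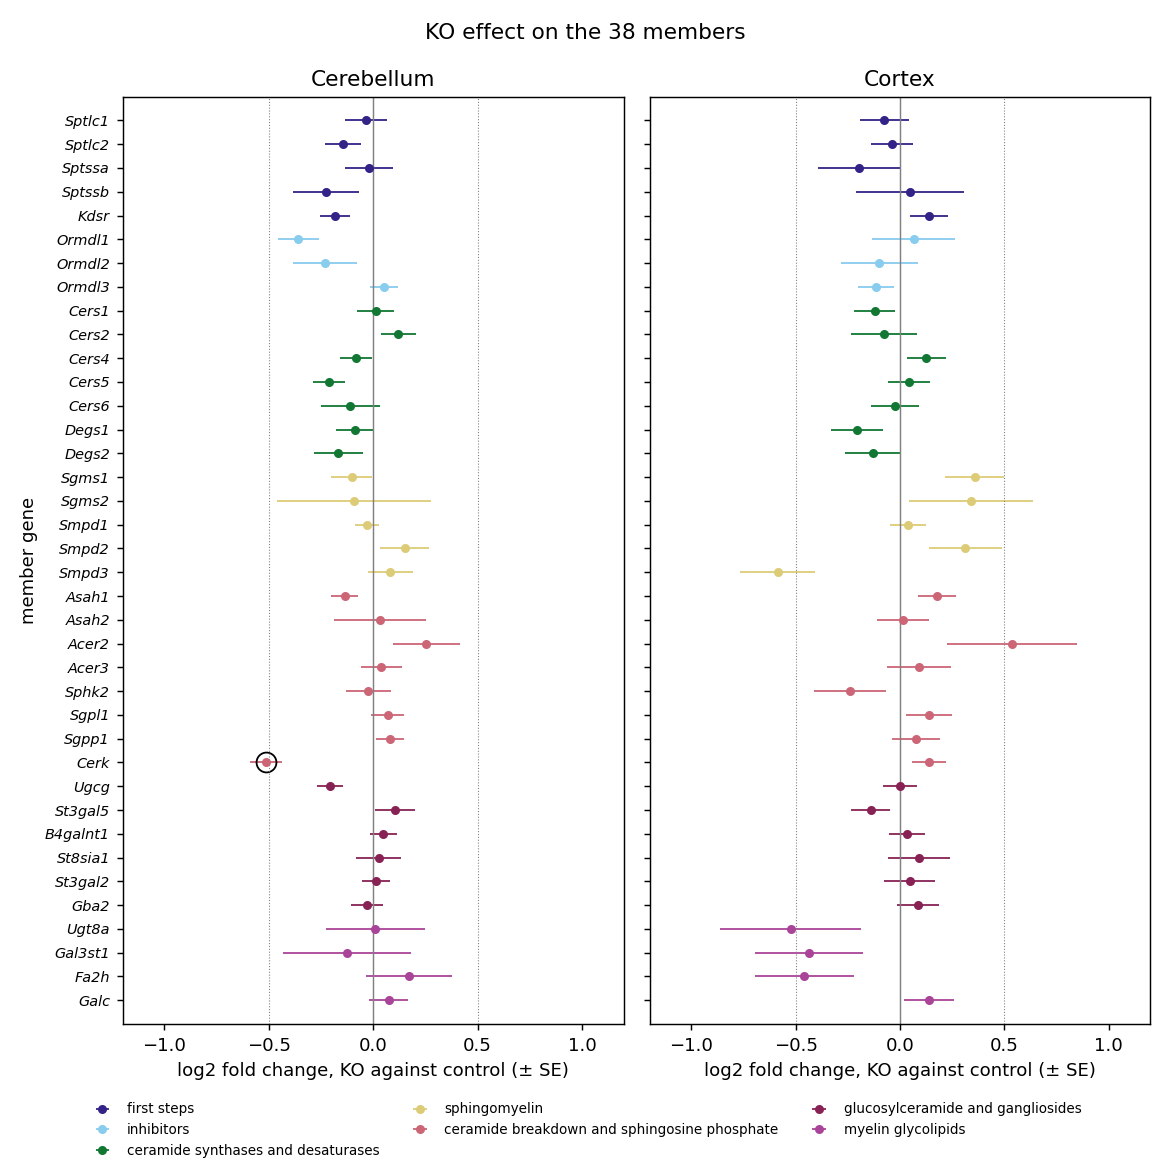
Log2 fold change of KO against control (x axis) for the 38 genes, ordered by role (y axis), in cerebellum and cortex. Points are estimates of edgeR coloured by role, bars are 1 SE, dotted lines mark the fold threshold and a circle marks a call, which only Cerk in cerebellum has, at -0.51.

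Cerebellum and cortex differed more than genotypes did. In controls 11 of the 38 genes were called between the tissues, which is 28.9% against 40.9% of the 20614 genes tested. Higher in cerebellum were 6 genes (Sptssb, Cerk, Sgms2, Ormdl1, St8sia1 and Sgpp1) against 19.2% of all genes, and lower were 5 (Smpd3, B4galnt1, Cers1, Degs2 and Gal3st1) against 21.8%. In KO mice 11 of the 38 were again called, against 35.6% of all genes (6 higher against 17.4%, 5 lower against 18.2%), and these were the same genes except that Gba2 was called in place of Gal3st1. With libraries scaled by their totals alone, the median of all genes shifted by 0.11 towards cerebellum and the controls' split of 6 higher and 5 lower became 10 and 5. No called gene changed its direction under that scaling. The tissue differences of control and KO mice are plotted against each other. The level per kilobase of exon, which allows genes to be set side by side, was highest for Cerk in control cerebellum (57.8 CPM per kilobase), followed by St3gal5 (49.7) and Degs1 (33.2). In control cortex it was highest for St3gal5 (57.4 CPM per kilobase), followed by Cers1 (36.6) and B4galnt1 (35.5). The lowest levels were those of Acer2 in cerebellum (0.71 CPM per kilobase) and Sgms2 in cortex (0.32).

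**Figure D2:**
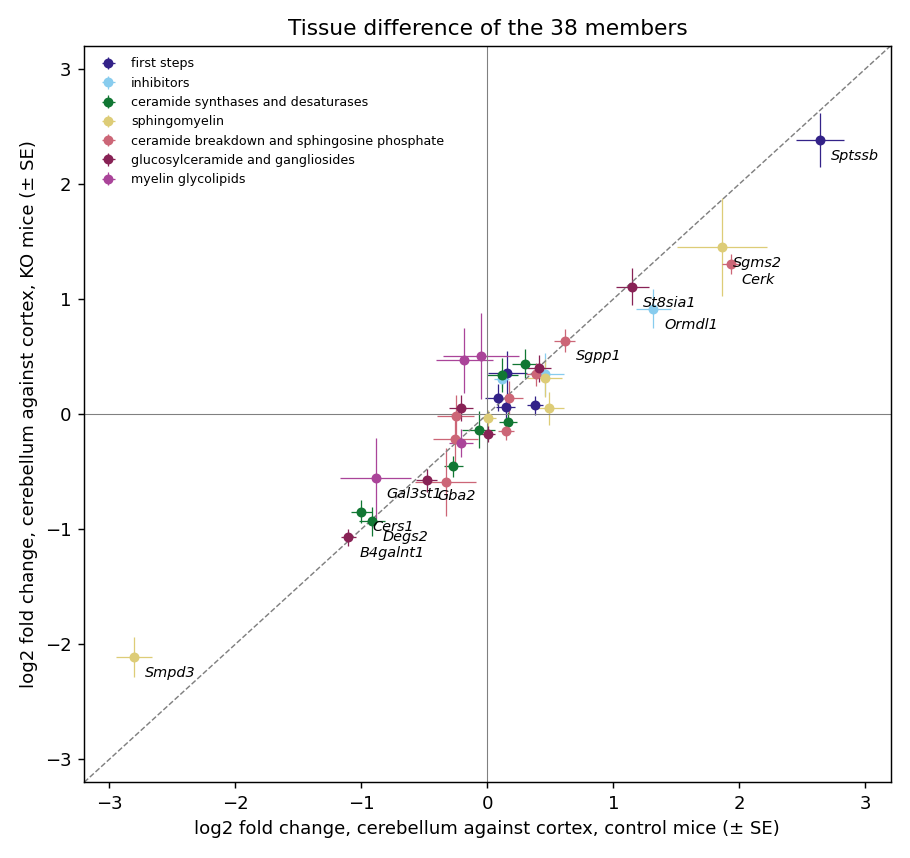
Log2 difference of cerebellum against cortex in control mice (x axis) and in KO mice (y axis), with 1 point per gene coloured by role, bars of 1 SE and names for genes called in either group of mice. Sptssb (2.64 and 2.38) and Smpd3 (-2.80 and -2.11) lie at opposite ends, with Smpd3 farthest of the genes plotted from the dashed line of equal differences.

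The promoters of 5 genes are shown here for their sequence context, 3 called higher in cerebellum than in cortex and 2 for enzymes of myelin glycolipid synthesis. They are the 250 bases before the annotated start in RefSeq (GRCm38.p6), written 5′ to 3′ on the gene's strand. Cerk (chr15:86186142-86186391, minus strand), Sptssb (chr3:69859895-69860144, minus) and St8sia1 (chr6:142964453-142964702, minus) were higher in cerebellum. Ugt8a (chr3:125938653-125938902, minus) and Gal3st1 (chr11:3983386-3983635, plus) encode the enzymes that make galactosylceramide and sulfatide. Capitals mark the GC box GGGCGG.
Cerk: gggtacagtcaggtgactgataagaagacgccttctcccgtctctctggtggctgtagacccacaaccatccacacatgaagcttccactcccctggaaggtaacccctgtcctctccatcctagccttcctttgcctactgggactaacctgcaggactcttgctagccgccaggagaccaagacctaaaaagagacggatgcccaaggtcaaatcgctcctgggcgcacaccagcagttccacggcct
Sptssb: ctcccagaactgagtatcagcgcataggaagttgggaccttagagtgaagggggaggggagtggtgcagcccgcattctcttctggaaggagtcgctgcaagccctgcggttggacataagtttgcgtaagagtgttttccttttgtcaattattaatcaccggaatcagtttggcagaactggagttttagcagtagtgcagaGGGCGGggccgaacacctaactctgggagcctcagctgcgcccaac
St8sia1: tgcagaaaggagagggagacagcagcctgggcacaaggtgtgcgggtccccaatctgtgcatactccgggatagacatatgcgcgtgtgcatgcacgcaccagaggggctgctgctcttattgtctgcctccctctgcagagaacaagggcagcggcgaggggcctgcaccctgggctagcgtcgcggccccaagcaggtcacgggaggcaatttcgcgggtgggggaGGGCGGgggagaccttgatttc
Ugt8a: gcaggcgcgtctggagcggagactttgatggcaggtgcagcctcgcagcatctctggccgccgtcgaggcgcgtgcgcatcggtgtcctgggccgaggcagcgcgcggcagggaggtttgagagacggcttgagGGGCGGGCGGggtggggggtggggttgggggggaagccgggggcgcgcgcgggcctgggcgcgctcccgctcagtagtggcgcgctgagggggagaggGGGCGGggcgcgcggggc
Gal3st1: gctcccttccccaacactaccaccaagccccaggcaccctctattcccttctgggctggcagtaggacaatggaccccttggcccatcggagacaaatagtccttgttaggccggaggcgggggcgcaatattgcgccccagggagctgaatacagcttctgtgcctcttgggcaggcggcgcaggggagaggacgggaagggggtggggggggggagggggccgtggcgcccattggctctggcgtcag
The 3 motifs searched on both strands were the GC box, the SOX core ACAAAG and the TATA box TATAAA. Ugt8a held 3 GC boxes, a pair of which overlap, and had a GC content of 76.8% against a median of 52.4% over all 32851 windows. Sptssb and St8sia1 held 1 GC box each, Cerk and Gal3st1 held none, and none of the 5 held the other motifs in this window. Gal3st1 had 3 such windows, of which 1 is shown and described, and the other genes shown had 1 each. A window was given for 33 of the 38 genes, of which 27 held a GC box against 32.7% of all windows, 5 a SOX core against 16.5% and 0 a TATA box against 12.4%. These counts set genes against windows, and a gene can have more than 1 window. Genes and windows were not matched for expression either, so no trait of the 33 genes is drawn from them. A match is a description of the letters and not a mapped binding site.

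Cerk (ENSMUSG00000035891.16, chromosome 15, 86139128 to 86186141, GRCm38) was measured at 287, 256 and 291 CPM in the cerebellum of controls 1 to 3 and at 194 and 198 CPM in KO mice. Both KO libraries lay below all 3 controls. The mean was 278 ± 19.1 CPM in controls (SD, n = 3) and 196 ± 2.60 CPM in KO mice (SD, n = 2), a log2 fold change of -0.51 (SE 0.08, adjusted p = 0.0124, edgeR). In cortex the gene was at 74.1, 70.3 and 74.1 CPM in controls and at 77.4 and 81.5 CPM in KO mice, with KO libraries above all controls (log2 0.14, SE 0.08, adjusted p = 0.886, edgeR). The KO effect in cerebellum was lower than that in cortex by a log2 value of -0.63 (SE 0.11), with an adjusted p of 0.0780 in edgeR. With the mouse as a block, since each mouse gave both tissues, the adjusted p of this difference was 0.0238 in edgeR. That model passed 128 (0.621%) of the 20614 genes tested. DESeq2 gave an adjusted p of 1.17e-04 for the same difference and passed 219 genes, 0.569% of the 38501 with any count.

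The cerebellar estimate for Cerk lay just past the fold threshold. Without control 1, control 3, KO 1 or KO 2 the adjusted p was between 0.0673 and 0.0967 (log2 -0.48 to -0.53, edgeR), so the call rested on each of these libraries. Without control 2 it was 0.00202 with a log2 value of -0.57. Markers of PCs, which moved with Cerk, are given above, and their part in the difference was not tested. As sums, microglia markers (133 to 154 CPM in control and 203 to 205 CPM in KO cerebellum, 2 of 8 called higher) moved the other way. Summed astrocyte markers did so too (2657 to 2860 and 3097 to 3293 CPM, 3 of 6 called higher). By gene, 1 of the 8 microglia estimates (log2 -0.05) and 1 of the 6 astrocyte estimates (log2 -0.43) were below 0. For that astrocyte gene both KO libraries lay below all controls. In bulk tissue, fewer cells of a type and less RNA per cell cannot be told apart. Between tissues of control mice Cerk was 3.82-fold higher in cerebellum (log2 1.93, SE 0.07, adjusted p = 2.83e-09, edgeR), and in KO mice 2.47-fold (log2 1.30, SE 0.08, adjusted p = 4.30e-07).

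**Figure D3:**
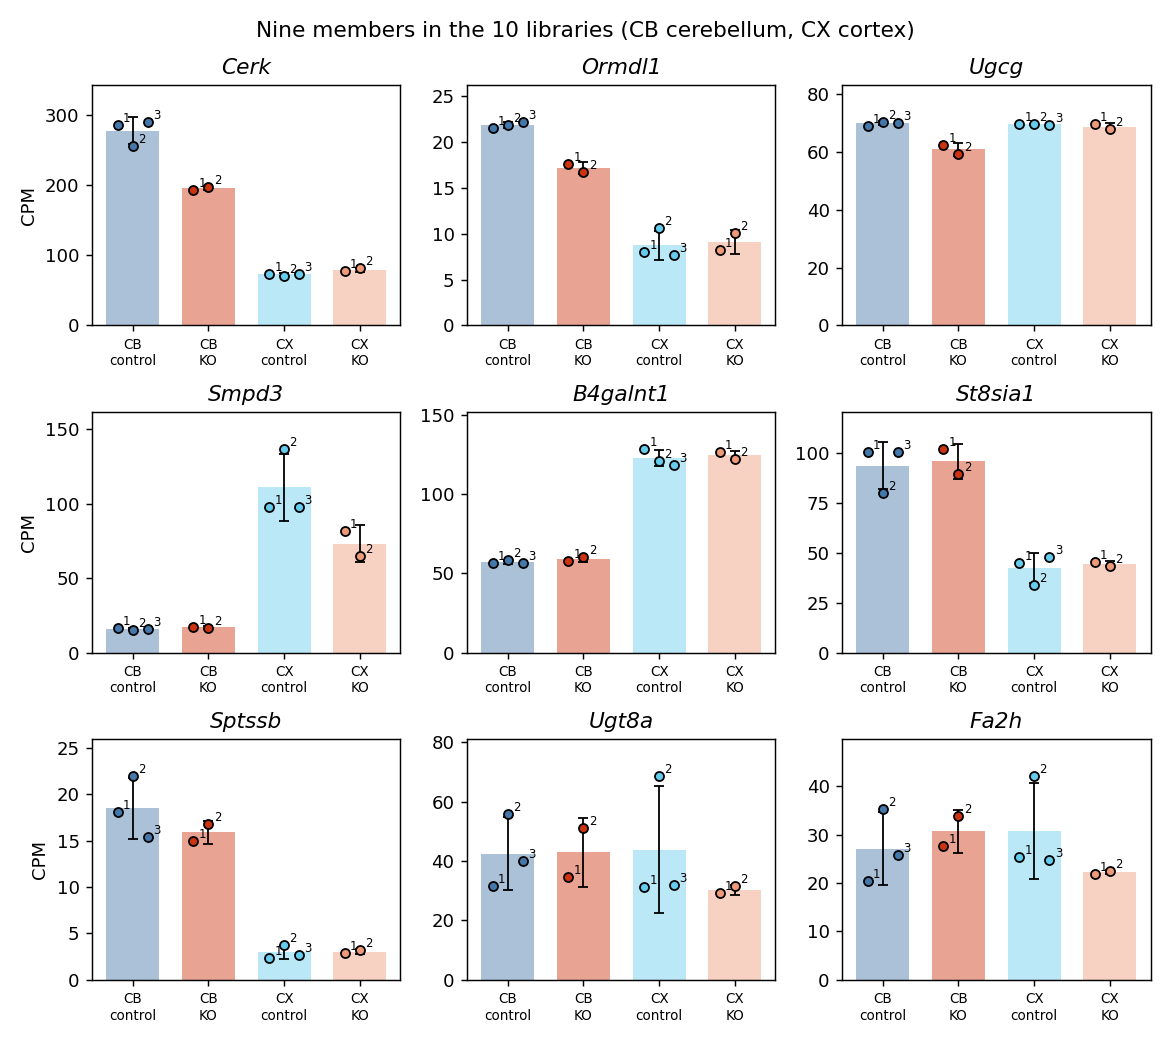
CPM (y axis, starting at 0) of 9 genes in the 4 groups (x axis), with points for libraries numbered by mouse, columns for group means and bars for the SD. Cerk in cerebellum shows KO libraries at 194 and 198 CPM below controls at 256 to 291 CPM, and Smpd3 is higher in all cortex libraries (64.6 to 137 CPM) than in cerebellum.

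Among the genes of the first steps, the 2 catalytic subunits of serine palmitoyltransferase, Sptlc1 and Sptlc2, lay between 30.1 and 38.9 CPM in all 10 libraries. Neither was called between genotypes or tissues. Of the small subunits, which set the activity and chain-length preference of the enzyme, Sptssb was called between the tissues. Sptssb was at 18.1, 22.0 and 15.4 CPM in control and at 15.0 and 16.8 CPM in KO cerebellum. In cortex it was at 2.40, 3.75 and 2.7 CPM in controls and at 2.87 and 3.22 CPM in KO mice. Every cerebellum library lay above every cortex library, and the genotypes overlapped in each tissue. The difference was 6.22-fold in controls (log2 2.64, SE 0.19, adjusted p = 5.91e-07, edgeR) and 5.22-fold in KO mice (log2 2.38, SE 0.23, adjusted p = 1.15e-05). Sptssa was at 28.2 to 34.8 CPM in cerebellum and 21.6 to 34.6 CPM in cortex and was not called. Per kilobase, Sptssb made up 30.1 to 34.8% of the 2 small subunits in cerebellum libraries and 7.10 to 9.79% in cortex libraries. This share was computed in each library and was given no test.

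Kdsr encodes the reductase of the second step. It was at 52.5, 53.2 and 49.5 CPM in control and 45.2 and 46.3 CPM in KO cerebellum, with both KO libraries below the controls (log2 -0.18, SE 0.07, adjusted p = 0.309, edgeR). In cortex the order was the opposite, with controls at 38.5 to 41.8 CPM and KO mice at 43.1 and 43.7 CPM (log2 0.14, adjusted p = 0.886, edgeR). The difference of these effects had an unadjusted p of 0.0150 and an adjusted p of 0.403 in edgeR, so it did not pass.

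The ORMDL proteins inhibit serine palmitoyltransferase when ceramide is plentiful. Ormdl1 was at 21.5, 21.9 and 22.2 CPM in control and at 17.6 and 16.7 CPM in KO cerebellum. The groups did not overlap, and the difference missed the threshold (log2 -0.36, SE 0.10, unadjusted p = 0.00591, adjusted p = 0.136, edgeR). In cortex it was at 7.97, 10.6 and 7.68 CPM in controls and at 8.18 and 10.03 CPM in KO mice, which overlapped. Cerebellum was 2.49-fold higher than cortex in controls (log2 1.32, SE 0.14, adjusted p = 1.15e-05, edgeR) and 1.89-fold in KO mice (log2 0.92, adjusted p = 0.00116). Ormdl3 was nearly level, at 50.3 to 53.4 CPM in cerebellum and 41.4 to 47.4 CPM in cortex. Ormdl2 lay between 8.91 and 16.8 CPM. Its value is uncertain, because 66.7% of its exonic bases lie in Dnajc14 and pairs were counted for each gene they overlapped.

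Of the ceramide synthases and desaturases, Cers1 makes the ceramides with C18 acyl chains that are typical of neurons. It was at 61.6, 51.7 and 60.4 CPM in control cerebellum and at 124, 112 and 112 CPM in control cortex. Tissues did not overlap, with cerebellum at 0.499 of the cortical level (SE 0.08 on the log2 scale, adjusted p = 1.90e-06, edgeR), and in KO mice the log2 difference was -0.85 (adjusted p = 5.67e-05). Of its exonic bases 42.7% lie in other genes, mainly Gdf1 with which it shares a transcript, so the pair cannot be told apart in these counts. Degs2, a desaturase that also makes phytoceramide, was at 13.3 to 14.3 CPM in control cerebellum and 23.5 to 29.6 CPM in control cortex (log2 -0.92, SE 0.10, adjusted p = 2.31e-05, edgeR), and in KO mice the log2 difference was -0.93. Cers2, which makes the very-long-chain ceramides used in myelin, lay between 41.2 and 59.8 CPM in all libraries and was not called. Cers5, which makes C16 ceramide, was at 40.1 to 41.0 CPM in control and 34.6 and 35.9 CPM in KO cerebellum without overlap (log2 -0.21, SE 0.08, adjusted p = 0.262, edgeR). Cers4, Cers6 and Degs1 were not called in any comparison.

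Sphingomyelin synthases and sphingomyelinases gave the largest tissue difference. Smpd3, a neutral sphingomyelinase, was at 16.5, 15.3 and 15.9 CPM in control and 17.5 and 16.4 CPM in KO cerebellum. In cortex it was at 98.1, 137 and 98.0 CPM in controls and at 81.9 and 64.6 CPM in KO mice. Every cortex library lay far above every cerebellum library (log2 -2.80, SE 0.14, adjusted p = 3.76e-08 in controls and log2 -2.11, SE 0.17, adjusted p = 2.77e-06 in KO mice, edgeR). In cortex both KO libraries lay below the controls, with a log2 fold change of -0.59 (SE 0.18, unadjusted p = 0.0125, adjusted p = 0.768, edgeR), and without control 2 it was -0.40 (adjusted p = 0.0695). Summed striatal markers moved in the same direction, at 1490 to 3846 CPM in control and 430 and 920 CPM in KO cortex, with none of the 9 genes at 0 and none called, and their part in the Smpd3 values was not tested.

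Sgms1, the main sphingomyelin synthase of the Golgi, was at 35.3, 25.7 and 30.3 CPM in control and 39.3 and 37.8 CPM in KO cortex. KO libraries were above controls (log2 0.36, SE 0.14, unadjusted p = 0.0366, adjusted p = 0.808, edgeR). Sgms2, its plasma membrane counterpart, was at 8.41, 4.54 and 8.70 CPM in control and 4.12 and 9.32 CPM in KO cerebellum, and at 1.60 to 2.87 CPM in all cortex libraries. Choroid plexus markers were also low in the 2 cerebellum libraries with the least Sgms2 (1195 CPM in control 2 and 60.1 CPM in KO 1), and their part was not tested. Cerebellum exceeded cortex in controls by a log2 value of 1.86 (SE 0.36, adjusted p = 0.00104, edgeR). In KO mice it did so by 1.45 (SE 0.43, adjusted p = 0.0171), which became 0.73 (adjusted p = 0.215) without the cerebellum of KO 2 and 1.24 (adjusted p = 0.114) without its cortex. Smpd1, the lysosomal acid sphingomyelinase, was the steadiest of this role, at 95.1 to 105 CPM in all 10 libraries, and Smpd2 lay between 11.5 and 21.9 CPM.

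In ceramide breakdown and sphingosine phosphate metabolism, 6 of the 8 genes were not called in any comparison. Sgpp1, a phosphatase that returns sphingosine 1-phosphate to sphingosine, was at 65.7 to 68.8 CPM in control cerebellum and 38.6 to 47.0 CPM in control cortex (log2 0.61, SE 0.08, adjusted p = 7.85e-05, edgeR). KO mice showed the same order, at 69.1 and 74.6 against 45.4 and 46.9 CPM. Asah1, the lysosomal acid ceramidase, was at 70.1 to 72.5 CPM in control and 63.1 and 66.6 CPM in KO cerebellum, and at 61.1 to 68.9 CPM in control and 69.7 and 73.8 CPM in KO cortex. KO libraries were thus outside the control range in opposite directions, and the test of that difference did not pass (log2 -0.29, SE 0.11, adjusted p = 0.434, edgeR). The alkaline ceramidases Acer2 and Acer3, the neutral ceramidase Asah2, the sphingosine kinase Sphk2 and the lyase Sgpl1 had KO estimates between -0.24 and 0.54 on the log2 scale. The 0.54 belonged to Acer2 in cortex, whose KO libraries at 11.5 and 6.88 CPM overlapped controls at 4.79 to 8.81 CPM.

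Among genes for glucosylceramide and gangliosides, B4galnt1 and St8sia1 act at the same branch. The synthase encoded by St8sia1 adds a second sialic acid and opens the b-series, and that of B4galnt1 adds N-acetylgalactosamine and starts the complex gangliosides. B4galnt1 was at 56.3, 58.0 and 56.7 CPM in control and 57.9 and 60.5 CPM in KO cerebellum, and at 128, 121 and 118 CPM in control and 126 and 122 CPM in KO cortex. St8sia1 ran the other way, at 100.3, 80.0 and 100.5 CPM in control and 102 and 89.6 CPM in KO cerebellum, and at 45.1, 33.8 and 47.9 CPM in control and 45.4 and 43.5 CPM in KO cortex. For each gene the tissues did not overlap and the genotypes did. The log2 difference of cerebellum against cortex was -1.10 for B4galnt1 (SE 0.06, adjusted p = 5.69e-08) and 1.15 for St8sia1 (SE 0.13, adjusted p = 2.31e-05) in controls, and -1.07 and 1.11 in KO mice (edgeR). Per kilobase, the log2 ratio of St8sia1 to B4galnt1 was -0.97 to -0.60 in cerebellum libraries and -3.27 to -2.74 in cortex libraries. Of the exonic bases of B4galnt1, 20.7% lie in Slc26a10.

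Ugcg, the glucosylceramide synthase that opens the branch, was at 69.0, 70.4 and 70.1 CPM in control and 62.5 and 59.3 CPM in KO cerebellum. Groups did not overlap (log2 -0.21, SE 0.06, unadjusted p = 0.0104, adjusted p = 0.182, edgeR), and all cortex libraries lay at 67.8 to 69.7 CPM. St3gal5, which makes the ganglioside GM3, lay between 123 and 163 CPM in all libraries and was not called. St3gal2, which adds terminal sialic acid to complex gangliosides, had a log2 tissue difference of 0.41 in controls and 0.40 in KO mice (adjusted p = 0.00355 and 0.0166, edgeR), below the fold threshold. Gba2, the non-lysosomal glucosylceramidase, was at 70.1 to 81.1 CPM in cerebellum and 100.4 to 118 CPM in cortex. Its log2 difference was -0.48 in controls (adjusted p = 3.85e-04), just inside the threshold, and -0.58 in KO mice (adjusted p = 6.79e-04, edgeR), which became -0.47 without the cerebellum of KO 2.

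With the filter on low counts, edgeR called none of the 4 genes for myelin glycolipids described next between genotypes. Ugt8a, the ceramide galactosyltransferase, was at 31.4, 55.9 and 40.2 CPM in control and 34.7 and 51.1 CPM in KO cerebellum, and at 31.1, 68.7 and 31.8 CPM in control and 29.2 and 31.5 CPM in KO cortex. Fa2h, which makes the 2-hydroxy fatty acids of myelin galactolipids, was at 20.5, 35.2 and 25.7 CPM in control and 27.6 and 33.8 CPM in KO cerebellum, and at 25.3, 42.1 and 24.7 CPM in control and 21.9 and 22.5 CPM in KO cortex. Gal3st1, the sulfotransferase that makes sulfatide, was at 5.47, 9.40 and 4.99 CPM in control and 4.72 and 7.42 CPM in KO cerebellum, and at 11.8, 16.3 and 8.66 CPM in control and 8.68 and 9.33 CPM in KO cortex. Control 2 was the highest library for all 3 genes in each tissue. In cortex the KO estimates were -0.52 for Ugt8a, -0.43 for Gal3st1 and -0.46 for Fa2h on the log2 scale (adjusted p = 0.880 to 0.886, edgeR). Without control 2 they were -0.04, -0.17 and -0.16 (adjusted p = 0.669 to 0.940). In cerebellum the estimates were 0.01, -0.12 and 0.17. Galc, the lysosomal enzyme that degrades galactosylceramide, lay between 26.2 and 35.9 CPM.

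Gal3st1 was the only gene of this role called between tissues, in controls (log2 -0.89, SE 0.28, adjusted p = 0.0209, edgeR), and its libraries overlapped between cerebellum and cortex. The adjusted p was 0.0699 to 0.0813 without the cerebellum of control 1, the cerebellum of control 3 or the cortex of control 2. In KO mice the log2 difference was -0.56 (adjusted p = 0.225).

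Neuronal gangliosides were set against myelin glycolipids with a score in each library, the mean log2 CPM of 4 myelin genes (Ugt8a, Gal3st1, Fa2h and Cers2) minus that of 5 ganglioside genes (Ugcg, St3gal5, B4galnt1, St8sia1 and St3gal2). The score was -2.23, -1.55 and -2.04 in control and -2.15 and -1.61 in KO cerebellum, and -1.91, -1.03 and -2.05 in control and -2.03 and -1.95 in KO cortex. Genotypes overlapped in both tissues. The difference of KO against control was 0.06 in cerebellum and -0.32 in cortex, each smaller than the SD between replicates (0.36 and 0.45), and the cortical value was -0.01 without control 2. The ganglioside mean stayed between 6.38 and 6.63 in all 10 libraries, whereas the myelin mean ranged from 4.36 to 5.35. Within the ganglioside mean, B4galnt1 and St8sia1 differed between tissues in opposite directions (log2 -1.10 and 1.15 for cerebellum against cortex in controls). A level mean therefore does not show that its genes were level between tissues. Relative to the mean of 10 oligodendrocyte markers in the same library, the myelin mean lay between -2.79 and -2.53 in all 10 libraries. The means of the 3 lists are plotted by library.

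**Figure D4:**
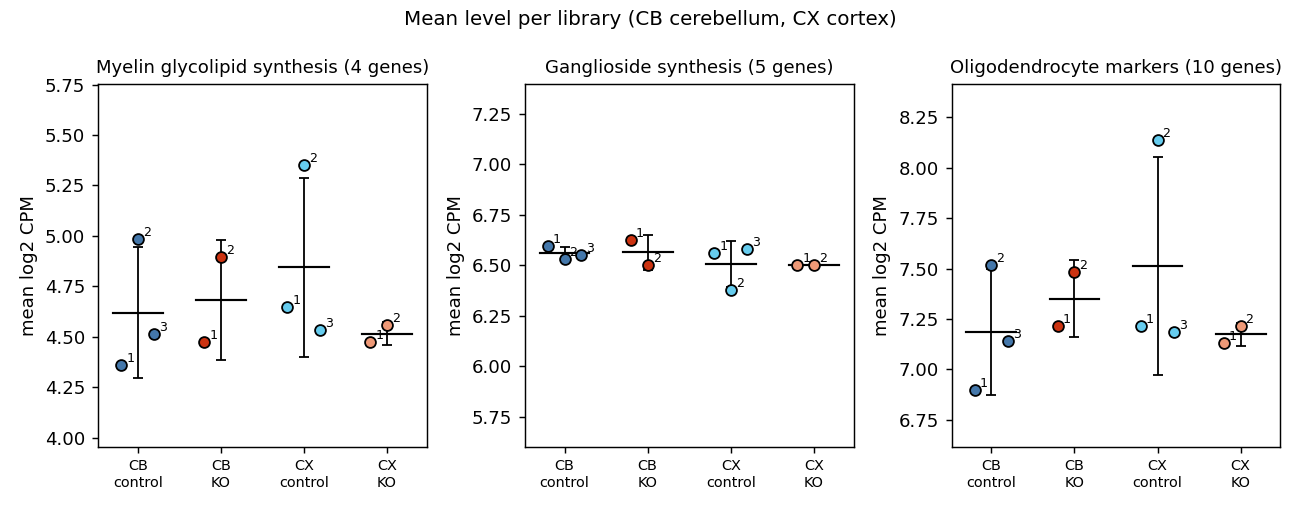
Mean log2 CPM (y axes, not starting at 0) of the 4 myelin genes, the 5 ganglioside genes and the 10 oligodendrocyte markers in the 4 groups (x axis), with points for libraries numbered by mouse, lines for group means and bars for the SD. The ganglioside mean, in which B4galnt1 and St8sia1 differ between tissues in opposite directions, stays between 6.38 and 6.63. The cortex of control 2 is highest for the myelin genes (5.35) and for the markers (8.14).

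The remaining genes of the pathway were described from a list of 44 others, of which 40 were tested in each KO comparison. By edgeR 0 of the 40 met both thresholds in cerebellum or in cortex and 0 passed the interaction, and at an unadjusted p under 0.05 stood 9 in cerebellum (against 13.4% of all genes), 5 in cortex (against 5.93%) and 8 in the interaction (against 8.28%). DESeq2, which fitted 43 of the 44 without the filter on low counts, called 0 in each tissue and passed 1 (Spns2) in the interaction. In cerebellum 3 of the 40 had an adjusted p under 0.05 (edgeR) with a fold below the threshold. Samd8 and Spns2, named after their values were seen, were lower in KO mice, and the remaining gene, not reported here, was higher. Of all genes 2.14% had such a p at any fold. Samd8, a ceramide phosphoethanolamine synthase, was at 88.8 to 94.9 CPM in control and 68.6 and 70.1 CPM in KO cerebellum (log2 -0.42, SE 0.06, adjusted p = 0.0120, edgeR). Spns2, an exporter of sphingosine 1-phosphate, was at 47.8 to 52.7 CPM in control and 36.7 and 39.5 CPM in KO cerebellum (log2 -0.41, SE 0.08, adjusted p = 0.0473, edgeR). In neither gene did the groups overlap. In cortex Spns2 lay the other way, at 37.6 to 52.3 CPM in control and 66.8 and 54.6 CPM in KO mice (log2 0.41, SE 0.16, unadjusted p = 0.0312, adjusted p = 0.797, edgeR). The difference of its KO effects was -0.79 on the log2 scale (SE 0.19, adjusted p = 0.187, edgeR).

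Between the tissues of control mice 16 of the 40 were called, against 40.9% of all genes, with 8 higher in cerebellum (against 19.2%) and 8 lower (against 21.8%). That count is at the background share and is no result about the list. The largest log2 values towards cerebellum were those of Sgpp2 (1.75), St8sia5 (1.61), Sphk1 (1.40), Nsmaf (0.98) and Neu3 (0.82). Those towards cortex were St6galnac5 (-3.79), St3gal1 (-2.19), Smpdl3b (-1.91) and S1pr3 (-1.75). St6galnac5, a sialyltransferase that acts on gangliosides, was at 3.56 to 5.70 CPM in control cerebellum and 60.4 to 70.8 CPM in control cortex. St8sia5, which adds further sialic acids to gangliosides, was at 164 to 176 CPM in control cerebellum and 47.8 to 62.5 CPM in control cortex. Neither gene's tissues overlapped.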

How the data were processed

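Bulk RNA-seq of cerebellum and cortex was analysed from raw counts of read pairs per gene, which the authors deposited as 1 table per library. According to the study's methods and the file headers, reads were aligned to GRCm38 with STAR and counted over exons with featureCounts 2.0.1, without strand and with pairs counted for each gene they overlapped. Of 81881 entries, 55536 carried a mouse gene identifier and entered the analysis, while the rest held 0.160% to 0.926% of a library's counts. Identifiers were matched to GENCODE M21, with equal coordinates for 55450. All 37 mitochondrial genes were at 0.

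Groups came from the labels. The 38 genes, the other lists and the tests were chosen with earlier results of these data known. Genotypes were tested tissue by tissue in edgeR 4.0.16 (R 4.3.3) by its quasi-likelihood F test, using TMM factors and filterByExpr at a count minimum of 10. Tissues and the interaction were tested in 1 fit of all 10 libraries with 4 group means. P-values were adjusted over all genes tested. The biological coefficient of variation was 0.121 in cerebellum, 0.141 in cortex and 0.134 in the joint fit. DESeq2 1.42.0 was an alternative, as were other scalings, no filter, blocks and leaving out each library. All 38 genes, Snx14, other pathway genes called in a KO comparison and the 5 largest tissue differences in each direction were named by rule, except for 1 gene that is not reported here. CPM per kilobase used the exonic length in the tables, and scores used a prior count of 2. Scripts were tested on simulated data.

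Tissues of the same mouse deviated together (r = 0.164 to 0.370 over genes), and their pairing comes from the animal numbers in the labels. Cell types were followed with markers of oligodendrocytes, precursors, PCs, granule cells, cortical excitatory neurons, striatum, astrocytes, microglia, choroid plexus, fibroblasts and endothelium. Those not given in the report had summed CPM of 71.9 to 160 (precursors), 13.1 to 113 (fibroblasts) and 46.5 to 103 (endothelium) in the 10 libraries. Chi-square tests found no library pair within sampling noise.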

Additional observations from a re-analysis of the deposited data

How the results depend on the processing

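The single call in cerebellum (Cerk) became 0 calls with libraries scaled by their totals (log2 -0.49, adjusted p = 0.0140) and with sex as a term, an alternative chosen after seeing the data (log2 -0.50, adjusted p = 0.0132), because the estimate moved inside the fold threshold. Sex is not in the labels and was inferred from the counts of Xist and Ddx3y. Control cerebellum had 1 male and 2 female libraries, and KO cerebellum had 1 of each. The labels tie same-numbered KO and control mice by the number alone. Their deviations correlated at -0.04 to 0.11. With 2 KO mice, whose deviations from their mean mirror each other, these values do not decide whether such mice share more than the number. With that number as a replicate block the count in cerebellum was 0 (Cerk log2 -0.48, adjusted p = 0.0740) and in cortex 0, and the replicate block lowered the calls over all genes in cerebellum from 302 to 181. With the mouse as a replicate block, 1 gene passed the interaction test (Cerk), and 11 and 12 genes were called between tissues in control and KO mice. DESeq2 also passed 1 gene in the interaction (Cerk). With no filter on low counts, 2 genes were called in cortex (Ugt8a and Smpd3) and 3 passed the interaction (Smpd3, Fa2h and Cerk), and the cause was not tested. Over all genes DESeq2 called 427 in cerebellum and 49 in cortex.

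Leaving out each library in turn gave 0 to 1 calls in cerebellum, 0 to 0 in cortex, 0 to 1 in the interaction (1 without the cerebellum or the cortex of control 2), 11 to 13 between tissues of controls and 10 to 12 between tissues of KO mice. The score differences ranged from -0.21 to 0.33 in cerebellum and from -0.52 to -0.01 in cortex over all alternatives. The tissue difference of the score in controls ranged from -0.47 to 0.06. The sign of the score difference in cerebellum and between tissues thus depended on the alternative, and no alternative moved a score difference by more than the SD between replicates. No call named in the text changed direction under the alternatives run. The limits are those of 2 KO mice per tissue and of controls that mix genotypes. The median SE of the 38 log2 fold changes was 0.10 in cerebellum and 0.12 in cortex, and a gene that missed the thresholds is not shown to be equal between the groups.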
